A study of Mus musculus with 30 samples.

Results

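The oligoadenylate synthetase (Oas) family of the mouse was followed over 18 RNA libraries of the haematopoietic progenitor lines HPC7 and HPCLSK. The members are 8 genes taken by symbol from the 50686 genes of the count tables: Oas1a, Oas1b, Oas1c, Oas1g, Oas2, Oas3, Oasl1 and Oasl2. They are 8 of the 12 Oas genes that the tables list, and the other 4 (Oas1d, Oas1e, Oas1f and Oas1h) are Oas1 paralogues with 0 to 2 counts per group. After a filter on low counts, 7 members were tested in HPC7 (all but Oas1g), 7 in HPCLSK (all but Oasl1) and 8 in the fit of both lines. Oas1a and Oas2 in HPC7 and Oas1g in HPCLSK passed that filter through their Y640F libraries, so the counts of tested members that rose are a description. In the fit of both lines, Oas1g passed through its HPCLSK Y640F libraries and Oasl1 through its HPC7 libraries. The counts of members that differed between the lines are thus a description too.

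Each line had been transduced with a retroviral vector that was empty (named after its dsRed marker), that carried STAT3, or that carried STAT3 Y640F, a form with a changed residue in the SH2 domain that is known to activate this transcription factor. The 6 groups held 3 libraries each, and the series text calls the 3 technical replicates, so p-values measure only how far these libraries scatter and say nothing of other transductions. HPC7 is labelled as strain 129SV for its RNA samples and HPCLSK as C57BL/6N, both were kept in medium with stem cell factor and serum, and no further agent such as an interferon is named. Each line was read in a sequencing run of its own, so line, strain and run cannot be told apart, and the 12 chromatin samples of HPC7 were not analysed here.

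Oas proteins sense double-stranded RNA. Once bound to it, the active members join ATP into short 2′-5′-linked oligoadenylates (2-5A), a second messenger of the antiviral response. The genes are known as targets of type I interferon, which acts through a complex that holds Stat2 and Irf9 on interferon-stimulated response elements in their promoters. Oas1a and Oas1g are active synthetases with a single synthetase domain, Oas2 and Oas3 carry several copies of it, and Oas3 binds long double-stranded RNA. Oas1b and Oas1c are not active as synthetases. Oas1b is known as the flavivirus resistance gene of the mouse and is broken in many inbred strains. Oasl1 and Oasl2 end in ubiquitin-like domains, and of them Oasl2 keeps synthetase activity while Oasl1 is known to hold back the translation of Irf7.

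All 8 genes lie on chromosome 5 (GRCm38), in 2 places. Oas2 (chr5:120730333-120749853), Oas3 (chr5:120753098-120777661), Oas1c (chr5:120800194-120812514), Oas1g (chr5:120876142-120887613) and Oas1a (chr5:120896256-120907521) are on the minus strand of a block that spans 191.3 kb with the silent paralogues. Oas1b (chr5:120812635-120824163, plus strand) starts 120 bases from Oas1c and points away from it. Oasl2 (chr5:114896936-114912234) and Oasl1 (chr5:114923240-114937915) are on the plus strand, 11005 bases apart, and 5792 kb from the block.

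The 120 bases in front of the start site are shown for 7 members, because they set the Oas1 genes apart from Oasl1 and Oasl2. They come from the promoter windows of RefSeq (GRCm38.p6), which held 8 of the 12 Oas genes. Oas2 and Oas1b have no entry there. The fourth line is the stretch between the 2 starts of Oas1c and Oas1b, read towards Oas1b. Capitals mark every match to the core of the interferon-stimulated response element, GAAANNGAAA, or to the STAT site TTCNNNGAA, searched on both strands. Matches that overlap run together. The coordinates, in the same order, are chr5:120777660-120777779 (minus strand), chr5:120907526-120907645 (minus), chr5:120887614-120887733 (minus), chr5:120812515-120812634 (plus), chr5:114896814-114896933 (plus) and chr5:114923120-114923239 (plus).
Oas3: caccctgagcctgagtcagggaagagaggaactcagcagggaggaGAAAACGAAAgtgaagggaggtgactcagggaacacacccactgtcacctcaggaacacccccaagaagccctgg
Oas1a: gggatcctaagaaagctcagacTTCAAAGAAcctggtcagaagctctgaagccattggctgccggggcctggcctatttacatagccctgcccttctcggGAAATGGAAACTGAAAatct
Oas1g: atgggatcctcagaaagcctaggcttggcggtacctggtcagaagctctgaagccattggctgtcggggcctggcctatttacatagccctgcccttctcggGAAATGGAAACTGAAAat
Oas1b and Oas1c: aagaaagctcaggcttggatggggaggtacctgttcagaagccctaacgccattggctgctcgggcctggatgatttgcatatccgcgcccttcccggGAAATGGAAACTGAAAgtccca
Oasl2: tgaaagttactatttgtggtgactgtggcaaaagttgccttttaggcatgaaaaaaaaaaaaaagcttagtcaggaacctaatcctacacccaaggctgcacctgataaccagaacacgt
Oasl1: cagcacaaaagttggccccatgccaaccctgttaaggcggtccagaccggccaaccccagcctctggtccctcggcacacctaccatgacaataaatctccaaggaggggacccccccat

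The letters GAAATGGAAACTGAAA, which hold 2 overlapping response element cores, stood at bases -20 to -5 in front of Oas1a, -18 to -3 in front of Oas1g and -22 to -7 in front of Oas1b. Read from Oas1c, the last copy starts at base -114 on the opposite strand. Of 32851 promoter windows of all genes (250 bases before to 50 after a start), 7 held these 16 letters, 0.0213%. They belonged to Oas1a, Oas1c and Oas1g with 1 window each and to Apol9a and Apol9b with 2 each. Oas1a and Oas1g share an unbroken run of 56 bases that ends at base -3 and base -1. Oas3 had a single core of other letters at base -75, and the windows of Oasl1, Oasl2, Oas1f and Oas1h held neither motif. Among the 6 members with a window, the STAT site was found in front of Oas1a alone, at base -98. Oas2 had no window to search, and Oas1b was covered only through the window of Oas1c.

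Over all windows, 3.44% held the response element core and 8.3% the STAT site. Of the 6 members with a window, 4 held the core and 1 the STAT site. Among genes called higher with Y640F in HPC7, members left out, 28 of 542 windows (5.17%) held the core and 34 (6.27%) the STAT site, beside 2.97% and 6.81% of the 11704 windows of tested genes. In HPCLSK the shares were 4.03% and 8.39% of 1216 windows, beside 3.16% and 6.97% of 11943. A match is a description of the letters and not a bound site.

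**Figure D1:**
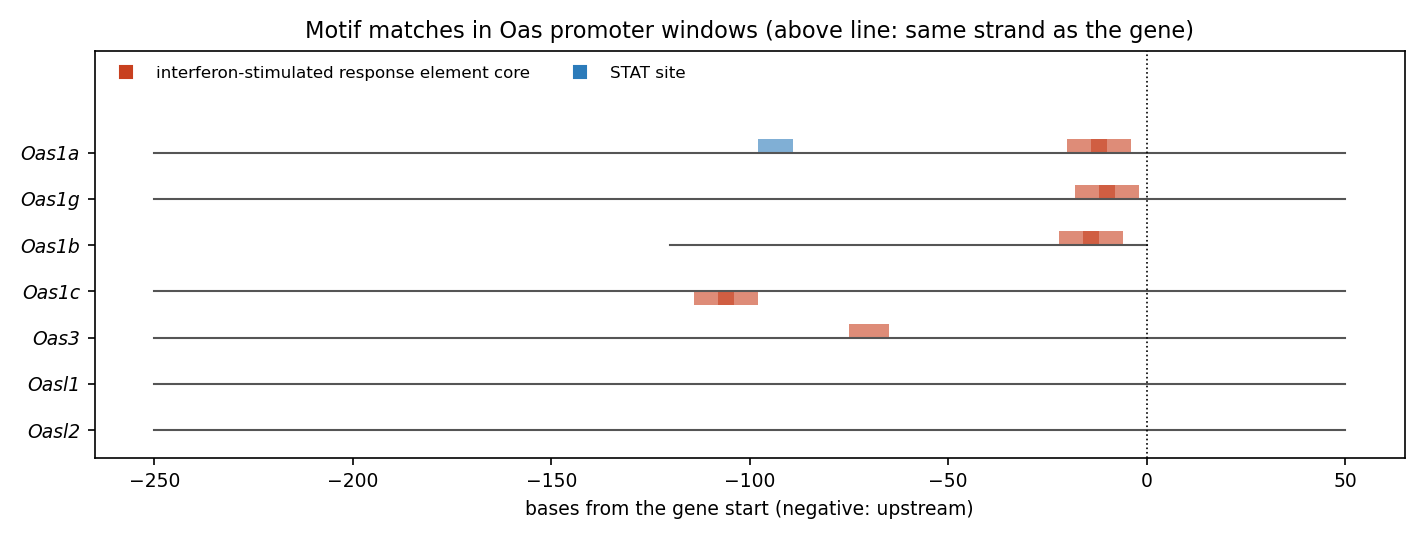
Motif matches in the promoter windows of the members, by distance in bases from the start site (horizontal axis). Red marks are response element cores, blue marks are STAT sites, and marks above a gene's line lie on its own strand. The Oas1 genes carry paired cores, Oas3 carries 1 and Oasl1 and Oasl2 carry none.

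The HPC7 libraries held 23127740 to 38556669 counts and the HPCLSK libraries 9537258 to 22154763, so 3 counts in 1 library stand for 0.0778 to 0.315 CPM, the unit of expression used here, which scales counts to an equal library total. Stat3 RNA, which shows the vectors at work, was 225 ± 10.1, 996 ± 17.1 and 669 ± 21.0 CPM in HPC7 with empty vector, STAT3 and Y640F, and 354 ± 12.4, 599 ± 42.2 and 1901 ± 45.0 CPM in HPCLSK (mean ± SD, n = 3). Y640F libraries thus held less Stat3 RNA than STAT3 libraries in HPC7 and more in HPCLSK, and the changed residue and the level of Stat3 RNA cannot be told apart in either line. Of 12 markers of stem and progenitor cells (such as Kit and Gata2), 11 or 12 were over 1 CPM in each group. In HPC7 they summed to 3280 to 3470 CPM with empty vector, 3070 to 3120 with STAT3 and 3360 to 3480 with Y640F. In HPCLSK the sums were 4870 to 5280, 4160 to 4580 and 3230 to 3470 CPM in that order, without overlap. There, 2 of the 12 were called higher and 2 lower with Y640F against empty vector, by the test described below. Of all 12552 genes tested, 1207 were called higher and 825 lower. The HPCLSK replicates 1 of the empty vector and of Y640F stood apart from the other libraries of their groups, and a chi-square test of their counts gave 8.06 and 10.6 per degree of freedom for the empty vector pair and 21.3 and 27.0 for Y640F. The 3 empty vector libraries of HPC7 also differed from each other, at 10.3 to 20.2. Results that rest on the HPCLSK pair are also given without them.

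**Figure D2:**
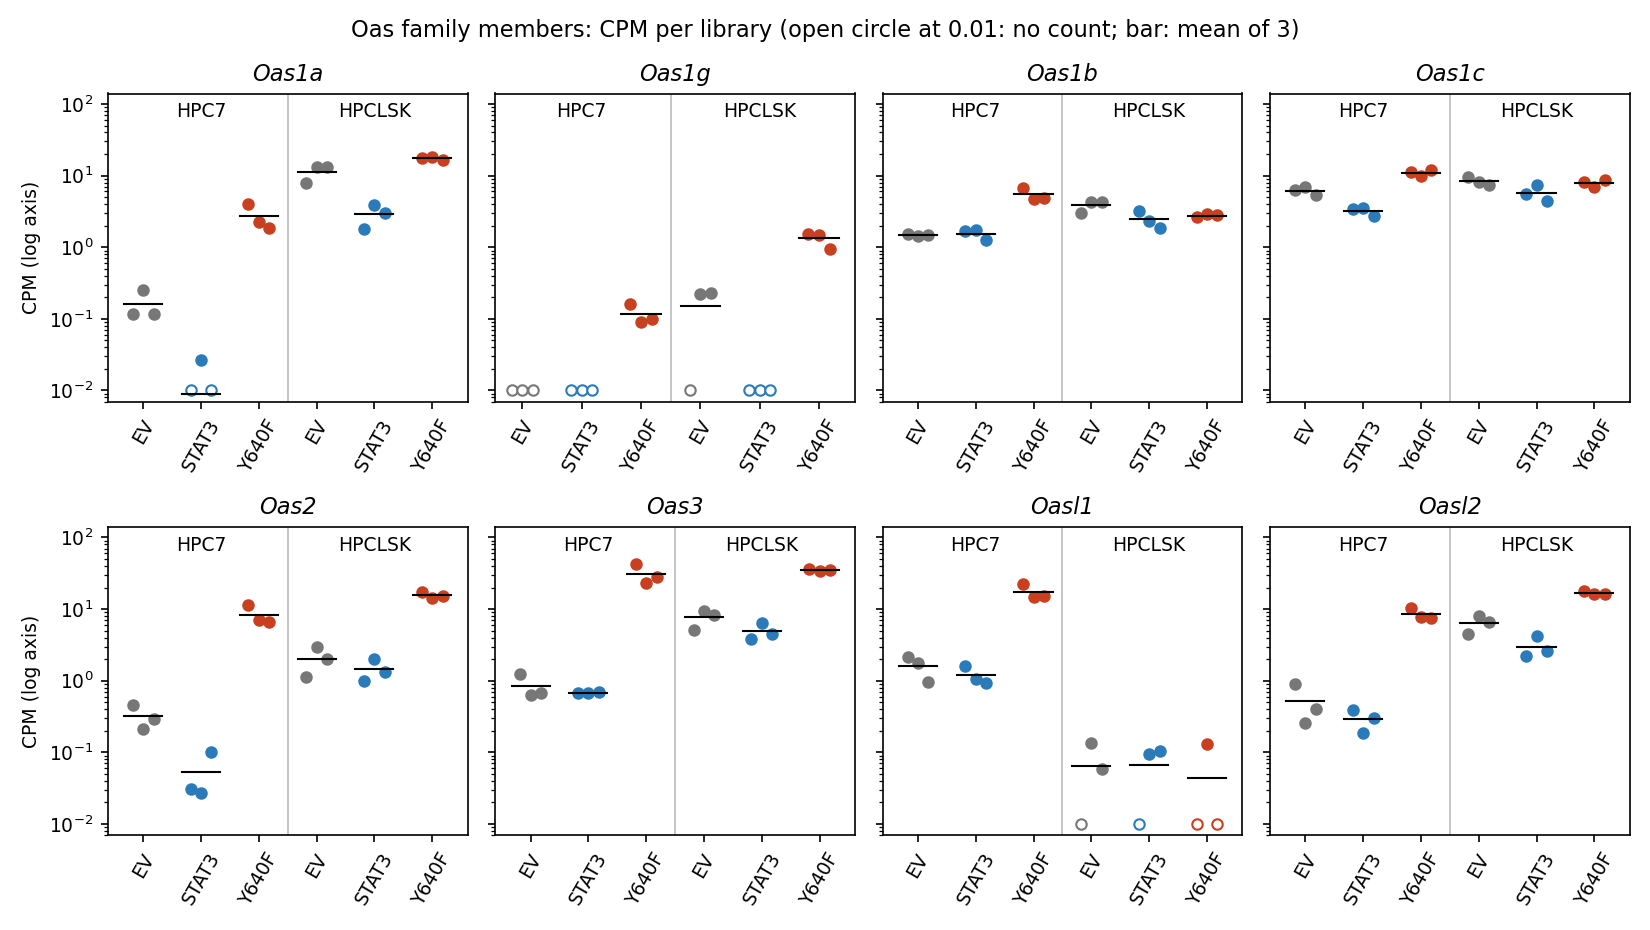
CPM of each member in each of the 18 libraries, on a log axis, with 1 panel per gene. Points are libraries, bars are means of 3, EV is the empty vector, and an open circle at the foot of the axis is a library with no count. In HPC7 every member has its highest group with Y640F, while in HPCLSK Oas1b and Oas1c do not and Oasl1 stays near 0.

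In HPC7 the active synthetases were low with empty vector, at 1.235 CPM or less in every library, and several times that with Y640F. Levels are CPM on the scale of all 18 libraries, in the order of replicates 1, 2 and 3. Oas3 measured 1.235, 0.641 and 0.670 CPM in the empty vector libraries, 0.670, 0.672 and 0.706 in the STAT3 libraries, and 42.2, 23.2 and 27.8 in the Y640F libraries. Oas2 measured 0.463, 0.214 and 0.291 CPM in the empty vector libraries, 0.0305, 0.0269 and 0.101 in the STAT3 libraries, and 11.5, 6.995 and 6.70 in the Y640F libraries. For both genes the lowest Y640F library lay far above the highest library of the other groups. Oas1a measured 0.116, 0.257 and 0.117 CPM (3, 6 and 4 counts) with empty vector, 0, 0.0269 and 0 (a single count) with STAT3, and 4.03, 2.27 and 1.88 (123, 76 and 75 counts) with Y640F. Its 3 groups did not overlap. Oas1g had no count in the 6 libraries with empty vector or STAT3, and 5, 3 and 4 counts with Y640F. Taking the floor as 3 counts in a group, this is at least 3.26-fold above empty vector and at least 3.89-fold above STAT3, with no test. That floor and the counting intervals below cover counting error only.

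The members without synthetase activity started from a higher level in HPC7. Oas1c measured 6.29, 6.88 and 5.30 CPM in the empty vector libraries, 3.38, 3.52 and 2.76 in the STAT3 libraries, and 11.3, 9.835 and 11.95 in the Y640F libraries. Its 3 groups were apart, with STAT3 the lowest. Oas1b measured 1.54, 1.45 and 1.49 CPM in the empty vector libraries, 1.68, 1.72 and 1.24 in the STAT3 libraries, and 6.81, 4.66 and 4.90 in the Y640F libraries, and the first pair of groups overlapped. Oasl1 measured 2.12, 1.75 and 0.961 CPM in the empty vector libraries, 1.58, 1.05 and 0.942 in the STAT3 libraries, and 22.2, 14.9 and 15.1 in the Y640F libraries. Oasl2, which keeps synthetase activity, measured 0.888, 0.257 and 0.408 CPM in the empty vector libraries, 0.396, 0.188 and 0.303 in the STAT3 libraries, and 10.4, 7.68 and 7.58 in the Y640F libraries. For these genes too the Y640F libraries did not overlap the others. Replicate 1 was the highest of the 3 Y640F libraries for 7 of the 8 members, all but Oas1c.

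The comparison of Y640F with empty vector asks what the activated form adds to a line without added STAT3. In HPC7, 6 of the 7 tested members rose, beside 4.54% of the 12683 genes tested that were called higher. A gene was called when edgeR's quasi-likelihood test gave an adjusted p under 0.05 and the fold was at least 2. Oas3 rose by 5.22 ± 0.27 on the log2 scale (SE, adjusted p = 4e-09), Oas2 by 4.69 ± 0.31 (3.1e-08) and Oas1a by 4.09 ± 0.42 (2.2e-06). Oas3 ranked 6 of all genes tested, counted from the highest log2 fold change downwards. Oasl2 rose by 4.06 ± 0.27 (3.4e-08) and Oasl1 by 3.49 ± 0.24 (4.2e-08). Oas1b rose less, by 1.88 ± 0.18 (1.2e-06), and Oas1c differed by 0.87 ± 0.12 (2.7e-05), under the fold minimum. The median log2 fold change of the 7 was 4.06, while the median of all genes tested was 0.00124. In bulk RNA, fewer cells that express a gene and less RNA per cell cannot be told apart.

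Against STAT3, all 7 tested members rose in HPC7, beside 6.17% of genes called higher. These vectors differed in the residue and also in the level of Stat3 RNA. This comparison uses the same Y640F libraries, so its values stand beside the previous ones and do not add independent support. The log2 fold changes were 7.29 ± 0.40 for Oas2 (adjusted p = 6.8e-09), 5.515 ± 0.27 for Oas3 (2e-09), 4.87 ± 0.28 for Oasl2 (1.2e-08) and 3.87 ± 0.24 for Oasl1 (1.9e-08). Oas1b followed at 1.82 ± 0.17 (1.3e-06) and Oas1c at 1.79 ± 0.13 (6.7e-08). For Oas1a the fitted value of 7.61 ± 0.63 (3.2e-07) rests on a single count in the STAT3 libraries. The ratio of CPM was 266, with a 95% exact binomial counting interval of 47.4 to 10600. The median of the 7 was 4.87, against -0.000541 for all genes tested.

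With STAT3 itself, the direction was the opposite one for part of the family. In HPC7, 2 of 7 members fell, beside 5.41% of genes called lower. Oas2 fell by 2.595 ± 0.80 on the log2 scale (adjusted p = 0.016) and Oas1a by 3.52 ± 1.24 (0.031), from 13 counts to 1, 15.5 times lower in CPM (counting interval 2.33 to 659). Oas1c differed by -0.91 ± 0.14 (9.2e-05), under the fold minimum. Oasl2 at -0.81 ± 0.47 (0.17), Oasl1 at -0.38 ± 0.34 (0.38), Oas3 at -0.30 ± 0.49 (0.65) and Oas1b at 0.06 ± 0.21 (0.84) did not pass. Both calls rest on few counts, and with only the STAT3 and empty vector libraries in the fit neither gene passed the filter on low counts. Neither was called when the fold was tested against 2 (glmTreat, adjusted p = 0.339 for Oas2 and 0.471 for Oas1a). The call of Oas2 was lost without replicate 1 of the empty vector (adjusted p = 0.0594) or without replicate 1 (0.0512) or 2 (0.0626) of STAT3. The call of Oas1a was lost without replicate 2 of the empty vector (0.0869) or without replicate 1 (0.0849) or 3 (0.084) of STAT3.

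**Figure D3:**
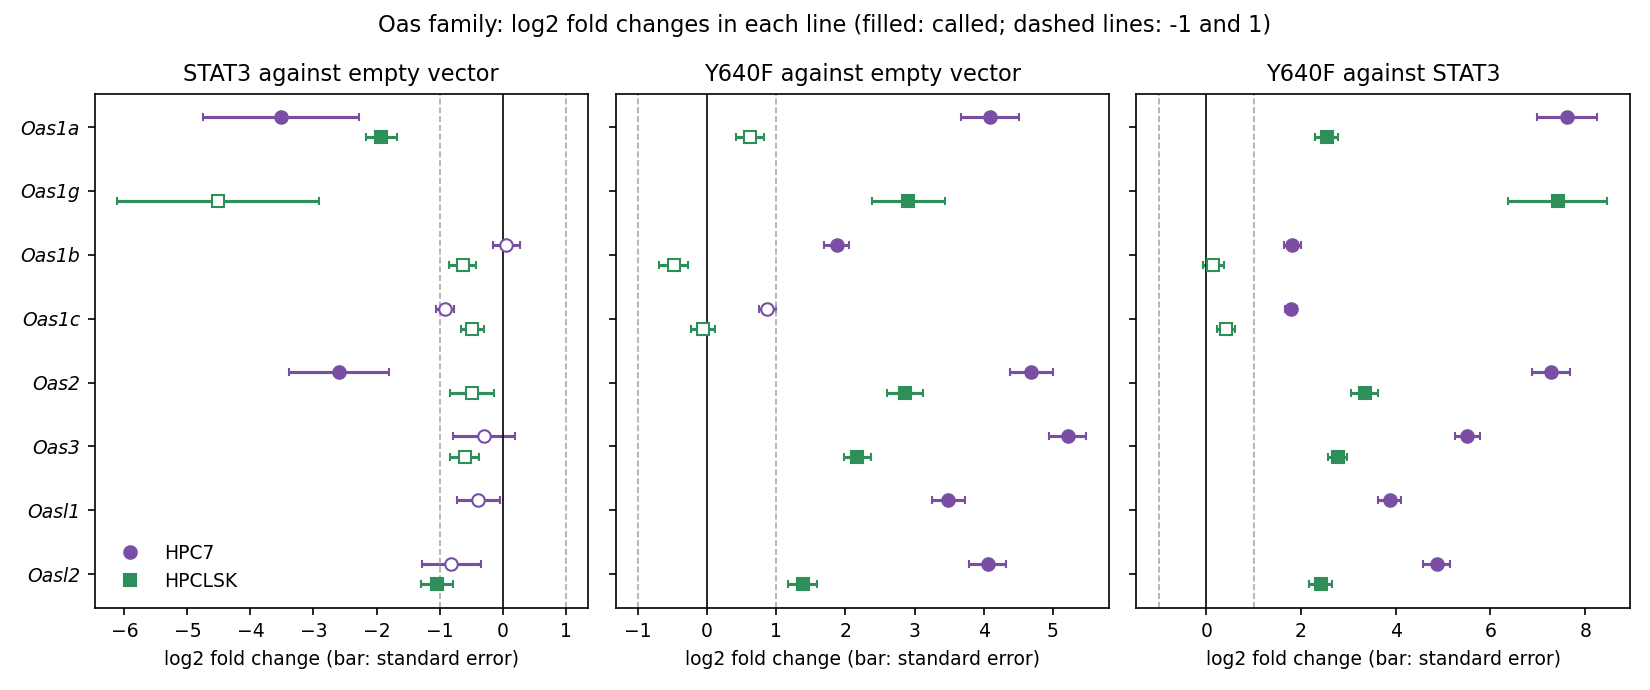
Log2 fold change of each member with its standard error in the 3 comparisons of vectors, HPC7 as circles and HPCLSK as squares, filled where called. In both comparisons with Y640F the HPC7 points of Oas3, Oas2, Oasl2 and Oas1b lie to the right of the HPCLSK points.

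In HPCLSK most of the family was already expressed with empty vector. Oas1a measured 7.96, 13.1 and 13.1 CPM in the empty vector libraries, 1.79, 3.90 and 2.99 in the STAT3 libraries, and 17.8, 18.3 and 16.7 in the Y640F libraries. Its groups were in the same order as in HPC7 and did not overlap. Oas1g, its closest relative by promoter, had 0, 5 and 4 counts with empty vector, none with STAT3, and 23, 23 and 19 (1.55, 1.502 and 0.93 CPM) with Y640F. Oas3 measured 5.13, 9.41 and 8.38 CPM in the empty vector libraries, 3.825, 6.47 and 4.54 in the STAT3 libraries, and 36.3, 33.8 and 34.8 in the Y640F libraries. Oas2 measured 1.12, 2.99 and 2.02 CPM in the empty vector libraries, 0.977, 2.00 and 1.34 in the STAT3 libraries, and 17.3, 14.2 and 15.0 in the Y640F libraries. For Oas2 and Oas3 the empty vector and STAT3 libraries overlapped and the Y640F libraries stood above both.

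The remaining members did not share one pattern in HPCLSK. Oasl2 measured 4.46, 8.07 and 6.59 CPM in the empty vector libraries, 2.20, 4.18 and 2.58 in the STAT3 libraries, and 17.9, 16.1 and 16.45 in the Y640F libraries, with no overlap. Oas1c measured 9.52, 8.07 and 7.40 CPM in the empty vector libraries, 5.45, 7.37 and 4.44 in the STAT3 libraries, and 8.16, 6.92 and 8.61 in the Y640F libraries. Oas1b measured 3.05, 4.28 and 4.22 CPM in the empty vector libraries, 3.255, 2.33 and 1.86 in the STAT3 libraries, and 2.63, 2.87 and 2.79 in the Y640F libraries. The Y640F libraries of Oas1c overlapped the empty vector libraries, and those of Oas1b lay below them. Oasl1 was at 0, 3 and 1 counts in the empty vector libraries, 0, 2 and 1 in those of STAT3 and 0, 2 and 0 in those of Y640F, at or under the floor in each library. Replicate 1 of the empty vector was the lowest of its group for 7 of the 8 members, all but Oas1c.

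In HPCLSK, 4 of 7 tested members rose with Y640F against empty vector, beside 9.62% of the 12552 genes tested that were called higher. Oas1g rose by 2.91 ± 0.53 on the log2 scale (adjusted p = 0.0015), Oas2 by 2.86 ± 0.26 (7.2e-06), Oas3 by 2.17 ± 0.19 (5.7e-06) and Oasl2 by 1.38 ± 0.21 (0.00026). Oas1a differed by 0.62 ± 0.20 (0.022), under the fold minimum. The enzymatically inactive Oas1b at -0.48 ± 0.21 (0.069) and Oas1c at -0.06 ± 0.17 (0.8) did not pass. The median was 1.38, against -0.00579 for all genes tested. Without the 2 libraries that stood apart, the same 4 members were called, with 2.33 for Oas1g, 2.504 for Oas2, 1.93 for Oas3 and 1.12 for Oasl2. The call of Oasl2 was lost when the fold itself was tested against 2 (edgeR's glmTreat, adjusted p = 0.132).

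Against STAT3, 5 of 7 members rose in HPCLSK, beside 8.11% of genes called higher. Oas2 rose by 3.345 ± 0.29 (adjusted p = 7e-06), Oas3 by 2.77 ± 0.21 (3.1e-06), Oas1a by 2.55 ± 0.25 (1.5e-05) and Oasl2 by 2.42 ± 0.24 (1.8e-05). Oas1g, with 65 counts against 0, was at least 18.5-fold higher (0.0004). Oas1c at 0.42 ± 0.18 (0.074) and Oas1b at 0.15 ± 0.23 (0.59) did not pass. The median was 2.55, against 0.00733 for all genes tested. The same 5 were called without the 2 libraries that stood apart, from 2.33 for Oasl2 to 3.23 for Oas2 among those with a count in each group.

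STAT3 against empty vector again gave lower values in HPCLSK, and 2 of 7 members fell, beside 1.79% of genes called lower. Oas1a fell by 1.92 ± 0.25 on the log2 scale (adjusted p = 0.00062), and Oasl2 fell by 1.04 ± 0.25 (0.021). Oas1b at -0.63 ± 0.22 (0.08), Oas3 at -0.60 ± 0.23 (0.11), Oas1c at -0.48 ± 0.18 (0.12) and Oas2 at -0.48 ± 0.34 (0.4) did not pass. Oas1g, with 9 counts against 0, was at least 2.42-fold lower and did not pass either (0.1). The median was -0.635, against 0 for all genes tested. The call of Oas1a held with each library left out in turn, while that of Oasl2 was lost without replicate 2 (adjusted p = 0.0806) or 3 (0.0604) of the empty vector and without replicate 1 (0.0871) or 3 (0.0653) of STAT3. Without the 2 libraries that stood apart, Oas1g was called as well (0.0346).

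Between the lines with empty vector, 6 of 8 members were higher in HPCLSK and 1 was lower, beside 22.8% and 13.6% of the 13891 genes tested. Oas1a was higher by 6.16 ± 0.395 on the log2 scale (adjusted p = 3.3e-11), Oasl2 by 3.65 ± 0.32 (3.9e-09), Oas3 by 3.21 ± 0.32 (2.2e-08), Oas2 by 2.71 ± 0.42 (8.9e-06) and Oas1b by 1.38 ± 0.21 (5.8e-06). Oas1g, 9 counts against 0, was at least 4.72-fold higher (0.0036), a call that was lost with the replicate number as a block (0.0512). Oas1c differed by 0.44 ± 0.16 (0.016), under the fold minimum. Oasl1 went the other way, at -4.30 ± 0.65 (5.8e-06). The median of the 8 was 2.96, or 2.48 with Oas1g at its bound, against 0.0363 for all genes tested. The same 7 were called without the 2 HPCLSK libraries that stood apart.

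The effect of Y640F differed between the lines for most members, by a test of the difference of the log2 fold changes. Against empty vector, 6 of 8 had a smaller change in HPCLSK than in HPC7, beside 7.25% of genes called lower. The differences were -3.45 ± 0.54 for Oas1a (adjusted p = 3.2e-05), -3.04 ± 0.38 for Oas3 (2.3e-06), -2.67 ± 0.40 for Oasl2 (1.8e-05), -2.35 ± 0.28 for Oas1b (1.4e-06) and -1.82 ± 0.49 for Oas2 (0.0043). Oasl1 at -4.30 ± 1.71 (0.045) was the weakest call and was lost in 9 of 21 alternatives (adjusted p from 0.0512 to 0.412). Tested against a fold of 2 (glmTreat), Oas2 was lost too (0.176). Oas1c at -0.91 ± 0.22 (0.0017) was under the fold minimum. Oas1g did not pass, and its fitted value of -1.63 ± 1.18 (0.29) is uncertain because it had no count in HPC7 with empty vector. Against STAT3, 6 of 8 were called lower as well, beside 8% of genes: Oas1a by -4.92, Oas2 by -3.90, Oas3 by -2.73, Oasl2 by -2.43, Oas1b by -1.65 and Oas1c by -1.36, the last pair not against a fold of 2 (glmTreat, 0.0838 and 0.258). Oas1g, at 0 with STAT3 in both lines, gave no such value. For STAT3 against empty vector no member was called in either direction, beside 8.25% of genes. Among members over the fold minimum, the value nearest to the threshold was that of Oas2, 2.08 ± 0.90 (0.094), and DESeq2 called it. Oas1b was under the fold minimum, at -0.70 ± 0.30 (0.092). With Y640F, Oas3 reached 31.1 ± 9.94 CPM in HPC7 and 35.0 ± 1.29 in HPCLSK, and these libraries overlapped, while its empty vector means were 0.849 ± 0.335 and 7.64 ± 2.23 CPM. With Y640F, Oasl1 averaged 17.4 CPM in HPC7 and 0.0436 CPM in HPCLSK, and Oas1g averaged 0.118 and 1.33 CPM. Without the 2 HPCLSK libraries that stood apart, 5 members were called lower against empty vector, with Oasl1 lost (-4.27, adjusted p = 0.0662), the same 6 against STAT3, and 0 for STAT3 against empty vector.

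Summed over the 8 members, the level in HPC7 was 11.1 ± 1.74 CPM for the empty vector, 7.0 ± 0.862 for STAT3 and 84.7 ± 20.9 for Y640F. In HPCLSK it was 39.8 ± 7.73, 20.6 ± 5.01 and 96.9 ± 4.16 CPM. The Y640F libraries ran from 69.6 to 109 CPM in HPC7 and from 93.8 to 102 CPM in HPCLSK, so they overlapped between the lines.

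Per length of exons, the order of the genes changed with the vector. In HPC7 with empty vector, Oas1c led with 2.56 CPM per kb, followed by Oas1b at 0.750 and Oasl1 at 0.618, which overlapped. The other members were at 0.120 or less. With Y640F, Oasl1 led with 6.67 ± 1.61 CPM per kb, ahead of Oas1c at 4.59 and Oas3 at 4.395. These and the next ones, Oas1b at 2.74, Oas2 at 1.88, Oas1a at 1.45 and Oasl2 at 1.34, each overlapped their neighbour in the order. In HPCLSK, Oas1a led with empty vector at 6.03 ± 1.565 CPM per kb, then Oas1c at 3.46 and Oas1b at 1.93, with no overlap between them. With Y640F it led again at 9.34 ± 0.42, ahead of Oas3 at 4.95 and of Oas2 at 3.48 and Oas1c at 3.28, which overlapped, with Oasl1 last at 0.0167.

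**Figure D4:**
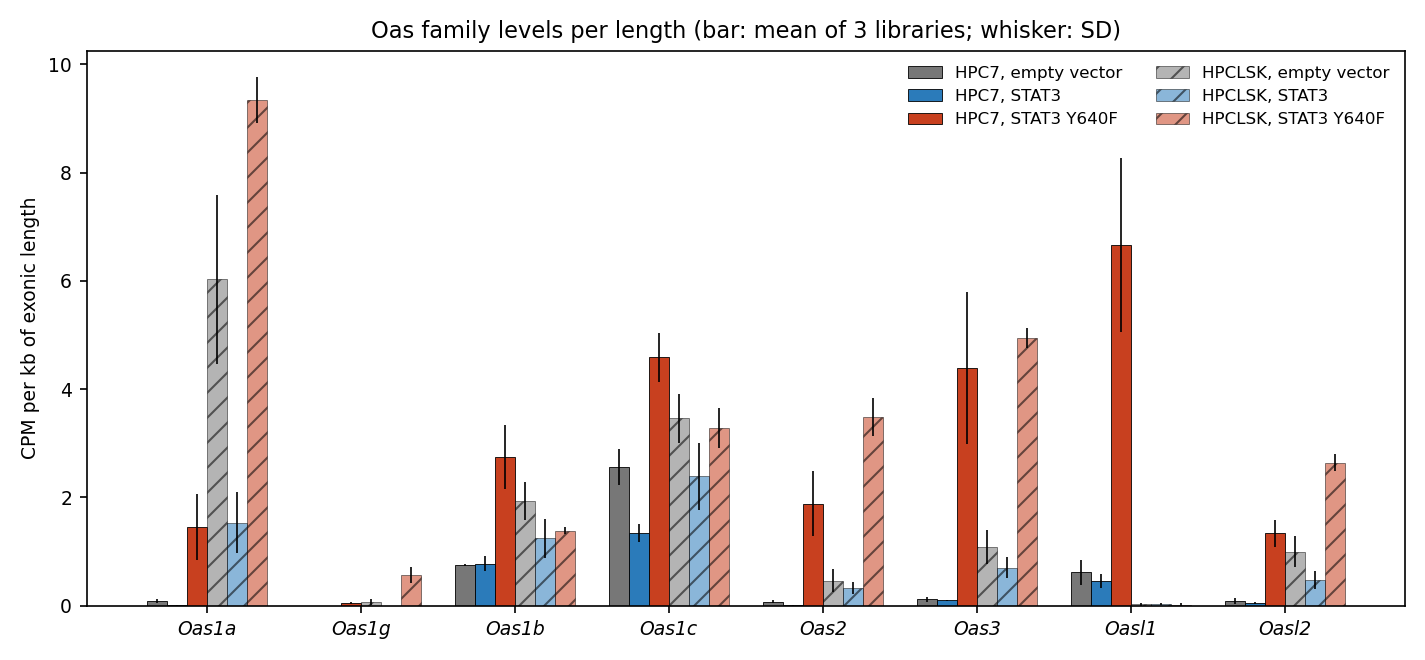
CPM per kb of exon length for each member in the 6 groups, as means with SD over 3 libraries. Oas1c leads in HPC7 with empty vector, Oasl1 in HPC7 with Y640F, and Oas1a in HPCLSK with empty vector and with Y640F.

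The Oas1 genes are known as paralogues of similar sequence, which was not measured here, and reads that map to several places were not counted, so the split between Oas1a, Oas1b, Oas1c and Oas1g is uncertain. With the counts of all Oas1 genes summed, the log2 fold changes in HPC7 were -0.69 for STAT3 and 1.33 for Y640F against empty vector, and 2.02 for Y640F against STAT3. In HPCLSK they were -1.06, 0.32 and 1.38. The sum was 1.62 higher in HPCLSK with empty vector, and the line difference for Y640F against empty vector was -1.004. For Y640F against STAT3 the line difference of the sum was -0.63 (adjusted p = 0.0123), under the fold minimum, where Oas1a, Oas1b and Oas1c were each called. The other 4 paralogues had 3 counts in all for Oas1e (1 in HPC7 with Y640F, 2 in HPCLSK with empty vector), 1 for Oas1d and 0 for Oas1f and Oas1h.

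Over the 9 libraries of HPC7, all pairs of members varied together, with Pearson's r of log2 CPM between 0.816 (Oas1c and Oas1g) and 0.994 (Oas2 and Oas3). In HPCLSK, Oas2 and Oas3 kept an r of 0.994 and Oas1g and Oas3 had 0.976, but Oas1b had -0.0801 with Oas2 and 0.438 with Oas1c. These values describe 9 libraries in 3 groups that share their depth and scaling. Outside the family, the 8 genes whose log2 CPM, centred within each line, followed the mean of the members most closely over the 18 libraries were Sec23b (r = 0.977), Helz2 (0.975), Isg15 (0.97), Got1 (0.966), Eif2ak2 (0.965), Irgm2 (0.964), Ube2l6 (0.964) and Ddx58 (0.96). Sec23b, Helz2 and Ube2l6 lie on chromosome 2, which was not examined as a whole, and the others on chromosomes 4, 11, 17 and 19. Within the lines, r was 0.99 and 0.935 for Sec23b and 0.997 and 0.919 for Helz2 (HPC7 and HPCLSK, 9 libraries each). Within each line alone, the leading gene was Helz2 in HPC7 and Map3k15 (0.994) in HPCLSK.

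Genes for enzymes that break down 2-5A were measured beside the synthetases. The phosphodiesterase gene Pde12, named after its values were seen, averaged 86.5 ± 6.69, 102 ± 2.34 and 85.1 ± 1.49 CPM in HPC7 with empty vector, STAT3 and Y640F, and 67.6 ± 3.87, 62.7 ± 1.86 and 70.8 ± 1.35 CPM in HPCLSK. Akap7 averaged 3.14 ± 0.402 CPM in HPC7 and 12.3 ± 1.0 CPM in HPCLSK with empty vector, and was 1.96 ± 0.13 higher in HPCLSK on the log2 scale (adjusted p = 4.9e-11). Neither gene was called between vectors in either line. Enpp1 was at 0 in 5 of the 6 groups.

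No interferon gene was detected at a level that could be tested. Of 20 interferon genes listed, 16 had no count in any library and no library held more than 1 count of any of them. Of the interferon signalling genes, 3 of 19 tested were called higher with Y640F against empty vector in HPC7, beside 4.54% of all genes tested. In HPCLSK 5 of 21 were called higher, beside 9.62% of all genes, and 1 was lower. Both counts of higher genes include Stat3, which the vector carried. Irf9, the DNA-binding part of the interferon-activated complex, rose by 1.08 ± 0.08 in HPC7 (adjusted p = 9.3e-08), from 16.2 ± 2.04 to 33.7 ± 1.07 CPM, and differed by 0.11 ± 0.12 (0.45) in HPCLSK. Irf7, the interferon-induced factor that drives interferon genes, had 1, 2 and 17 counts in the HPC7 groups. In HPCLSK it measured 7.75 ± 2.19, 3.87 ± 2.00 and 16.4 ± 1.14 CPM and rose by 1.06 ± 0.26 with Y640F (0.0046). Usp18, which dampens the interferon receptor, ran opposite to the synthetases between the lines, at 88.3 ± 10.4 CPM in HPC7 and 5.59 ± 1.53 in HPCLSK with empty vector (-3.93 ± 0.14, 5.1e-15). With Y640F it fell by 1.05 ± 0.23 in HPCLSK (0.0024). Stat2, named after its values were seen, stayed under the fold minimum with Y640F against empty vector, at 0.66 ± 0.06 (3.2e-07) in HPC7 and 0.19 ± 0.06 (0.023) in HPCLSK.

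Other interferon-stimulated genes moved in the same directions in HPC7. Of 30 tested, 11 fell with STAT3 against empty vector and 0 rose, beside 5.41% of all genes called lower. The median of the 30 was -0.816, against -0.814 for the members. With Y640F against empty vector 10 rose and 0 fell (median 0.656), beside 4.54% of all genes called higher. Against STAT3 22 rose and 0 fell (median 1.69), beside 6.17% called higher. The largest with Y640F against empty vector were Rtp4 (5.59), Rsad2, which encodes viperin (2.94), the GTPase gene Mx2 (2.855), Ifit1 (2.79) and the ubiquitin-like Isg15 (2.76). The value of Rtp4 (SE 0.70) rests on a level under the floor with empty vector, 0.0262 ± 0.0454 CPM, against 1.36 ± 0.424 with Y640F (scaled within the line). In HPCLSK, 8 of 31 rose and 1 fell with Y640F against empty vector (median 0.233), beside 9.62% of all genes called higher. Ifi204 rose by 3.70 ± 0.26 (adjusted p = 1.3e-06) and Isg15 by 1.47 ± 0.18 (4.4e-05), whereas Rsad2 fell by 1.47 ± 0.26 (0.00069). Of the genes of other nucleic acid sensors, 1 of 12 rose with Y640F against empty vector in HPC7 (8.33%, median 0.4). This was Ddx58 (RIG-I), by 1.19 ± 0.10 (2.1e-07). In HPCLSK 2 of 13 rose (15.4%, median 0.374), Tlr7 by 2.18 ± 0.30 (0.0001) and the kinase gene Ikbke by 1.36 ± 0.17 (6.6e-05). The shares of all genes called higher were 4.54% in HPC7 and 9.62% in HPCLSK.

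Markers of other blood cells moved with the vectors. In HPCLSK the 10 monocyte and macrophage markers summed to 796 to 1040 CPM with empty vector, 1070 to 1970 with STAT3 and 6370 to 9510 with Y640F. All 8 that were tested there were called higher with Y640F against empty vector (median log2 fold change 2.71), beside 9.62% of all genes. C1qa or C1qb was at 0 in 2 of these HPCLSK groups. In HPC7 the same list summed to 23.0 to 37.3 CPM over all groups, with C1qa at 0 in each, and of 7 tested markers 0 were called higher and 1 lower with Y640F against empty vector (median -0.161). There, 3 of the 7 fell with STAT3 against empty vector (median -0.985), beside 5.41% of all genes called lower. With Y640F against STAT3, 4 of the 7 rose (median 1.38), beside 6.17% called higher. The 8 neutrophil markers summed to 6570 to 10600, 12800 to 19500 and 12100 to 16300 CPM in the same HPCLSK groups, and to 117 to 662 CPM in HPC7. With STAT3 against empty vector in HPCLSK, 7 of the 8 rose (median 2.24), beside 352 of 12552 genes called higher. With Y640F against empty vector, 3 rose and 3 fell (median 0.0118), beside 1207 and 825 genes. With Y640F against STAT3, 2 rose and 5 fell (median -1.42), beside 1018 and 765. In HPC7 the 3 that were tested all fell with Y640F against empty vector (median -1.87), beside 462 of 12683 genes. The 8 dendritic markers summed to 63.5 to 73.5 CPM in HPC7 and 127 to 217 in HPCLSK, with Siglech and Xcr1 at 0 in all groups. Of 5 tested in HPC7, 3 rose and 1 fell with Y640F against empty vector (median 1.13), beside 4.54% of all genes called higher. The part of these cell types in the Oas values of either line was not tested.

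The neighbours of the Oas genes on chromosome 5 were compared next. In HPC7 with Y640F against empty vector, the 29 tested genes within 1 Mb of the block had a median log2 fold change of 0.47 and ran from -0.341 to 1.08, and 1 of them, Rita1 (1.08 ± 0.07, adjusted p = 2e-08), was called. Nearest were Rasal1 at 50.7 kb (-0.25, 0.32), Ddx54 at 102 kb (0.42), Ptpn11 at 209 kb (0.49) and Rpl6 at 283 kb (0.46). Around the pair, 4 of 46 were called higher and the median was 0.344. The nearest there, 2210016L21Rik at 4.24 kb, differed by 0.54. The called Gm13822 (1.499 ± 0.40, 0.0058) overlaps the start of Oasl1 on the opposite strand. Chromosome 5 as a whole lay above the median of all genes in HPC7 with both vectors, with medians of 0.321 for Y640F and 0.364 for STAT3 over 861 genes without the Oas genes. Of these 861 genes, 71 were called higher with Y640F against empty vector, beside 4.54% of all genes tested. Scaled on chromosome 5, the same 6 members were called with Y640F against empty vector, whereas with STAT3 Oas1c (-1.27) and Oasl2 (-1.16) were called lower as well. Between Y640F and STAT3 the medians were -0.0265 for chromosome 5, 0.112 near the block and 0.0594 near the pair.

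In HPCLSK with Y640F against empty vector, 4 of 24 genes near the block were called higher, with a median of 0.218. They were Rasal1 (3.80 ± 0.48), 2510016D11Rik (1.77), Slc8b1 (1.21) and Tpcn1 (1.20). The value of Rasal1 was above that of every member of the block. Around the pair 1 of 42 was called higher, Acacb (3.43), and 1 lower, 4930515G01Rik (-1.54), with a median of -0.0456. The value of Acacb was above that of Oasl2. Chromosome 5 without the Oas genes had a median of -0.00707 in this comparison, with 72 of 812 genes called higher and 54 lower. Of all genes tested, 9.62% were called higher.

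**Figure D5:**
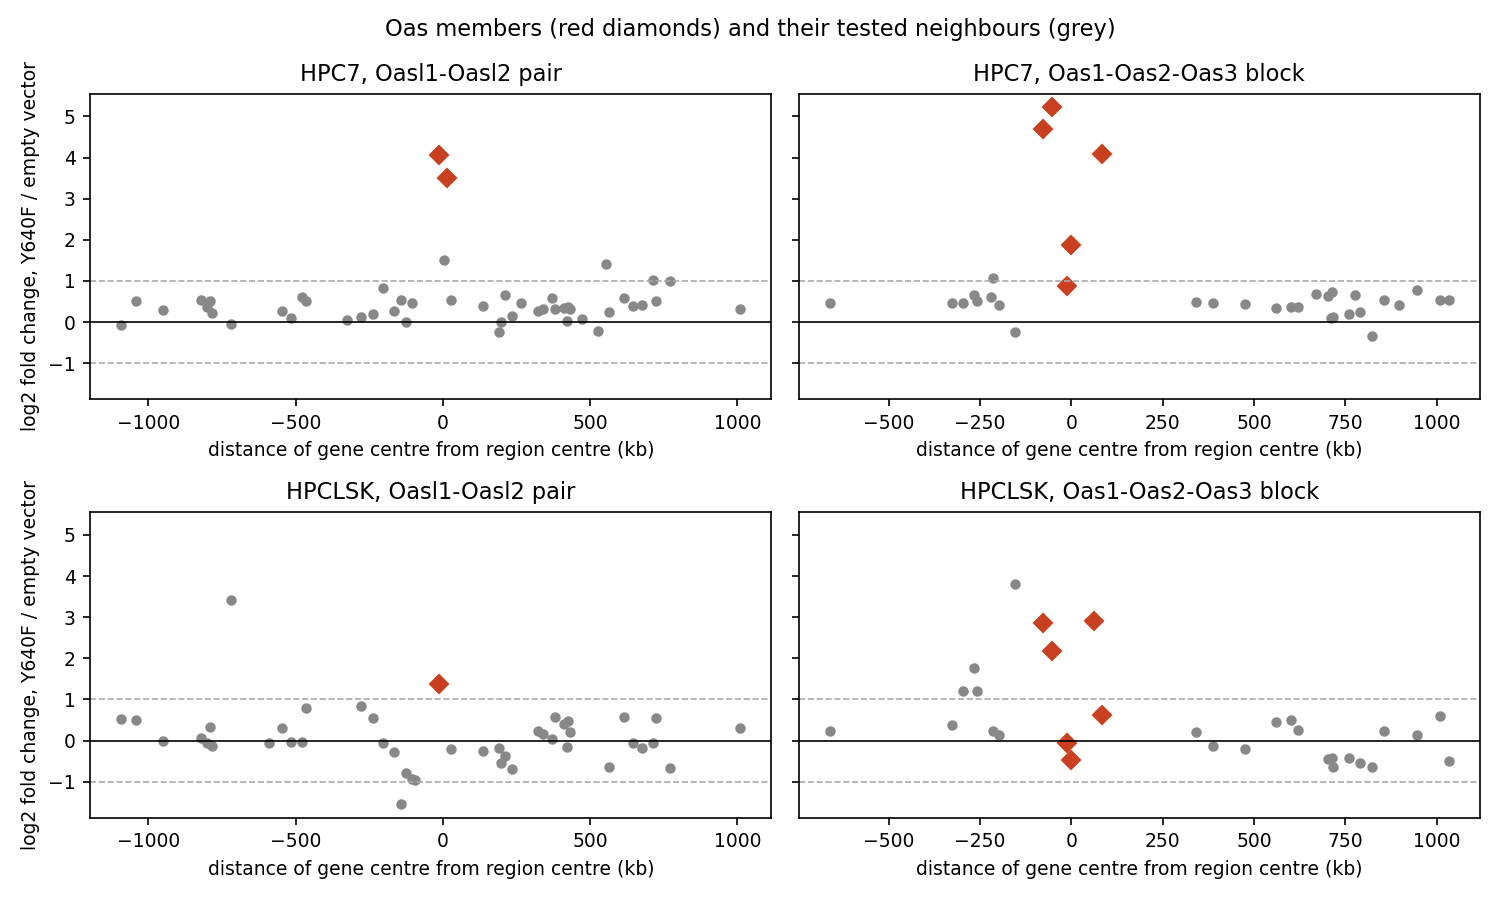
Log2 fold change of Y640F against empty vector for the tested genes around the Oas block and the Oasl pair, by distance in kb from the centre of the region, in each line. Members are red diamonds. In HPC7 the members apart from Oas1c lie above all neighbours, while in HPCLSK Rasal1, with few counts in the empty vector libraries, lies above the members of the block.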

How the data were processed

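The deposited values are raw counts of reads per gene. The authors made them, per the file headers, with featureCounts 1.5.1 over exons, on the strand setting 2, from STAR alignments to GENCODE M13 (GRCm38). Reads were single-end, 50 bp. Per the submitters' processing notes, Trimmomatic was used. Reads that map to several places were not counted.

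Symbols were matched by gene ID with its version for 45737 genes and without it for 4639, and 310 had none. Counts were scaled by TMM and tested with edgeR 4.0.16 (R 4.3.3, filterByExpr, quasi-likelihood test, Benjamini-Hochberg adjustment over all genes tested). Comparisons within a line used its 9 libraries and those between lines all 18. Calls needed an adjusted p below 0.05 and a log2 change of 1 or more in size. CPM per kb uses the exon lengths in the count tables. The scripts were tested on simulated data. The members, the gene lists and the rule for named genes (up to 5 called genes per list by size of change, the 2 nearest neighbours on each side and up to 6 called ones, the 8 genes of most like pattern) were chosen with earlier results of these data known. Alternatives were DESeq2 1.42.0, other scalings and filters, glmTreat, a replicate block and leaving out libraries. Same-numbered libraries were not paired by the labels. Some genes of the lists are not reported here.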

Additional observations from a re-analysis of the deposited data

Results flagged for a closer look

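The response to Y640F differed between the lines by a test of the difference for most members, and each difference below is a log2 fold change in HPCLSK minus that in HPC7 (edgeR's quasi-likelihood test, adjusted p under 0.05). Against empty vector it was -3.45 for Oas1a, -3.04 for Oas3, -2.67 for Oasl2, -2.35 for Oas1b, -1.82 for Oas2 and -4.30 for Oasl1, which had at most 3 counts in any HPCLSK library. Against STAT3 it was -4.92 for Oas1a, which had a single count with STAT3 in HPC7, -3.90 for Oas2, -2.73 for Oas3, -2.43 for Oasl2, -1.65 for Oas1b and -1.36 for Oas1c. Both sets use the same Y640F libraries. Line, strain label and sequencing run cannot be told apart.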

How the results depend on the processing

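Of 1217 values of member log2 fold changes under other settings, 1156 kept their side of the threshold, 32 lost a call and 26 gained one. The other 3 changed sign with an adjusted p under 0.05 in the main fit or the alternative. They came with all Oas1 genes summed, which replaces each gene by the sum. The value was -0.69 in place of Oas1b for STAT3 against empty vector in HPC7. For Y640F against empty vector in HPCLSK it was 0.32 in place of Oas1b and of Oas1c. Other values changed sign without such a p, such as Oas1b for STAT3 against empty vector in HPC7 (-0.29 to 0.19 over the other settings). These stand among the 1156. Of 165 counts of members called, 148 stayed within 1.5 times. For STAT3 against empty vector in HPC7 the count of 2 became 0 under glmTreat, 0 with the compared groups alone in the fit, where 5 members passed the filter and Oas2 and Oas1a did not, and 4 when scaled on chromosome 5 genes. In HPCLSK it became 1 under glmTreat. The line difference of that comparison went from 0 to 1 with chromosome 5 scaling, without a filter and under DESeq2, each time for Oas2. The cause was not tested.

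Leaving out 1 library at a time gave counts of 0 to 3 for STAT3 against empty vector in HPC7 and 1 to 3 in HPCLSK, and 0 to 1 for their line difference. The counts were 6 and 7 in HPC7 for Y640F against empty vector and STAT3, and 4 and 5 in HPCLSK, with every library left out in turn. Between the lines with empty vector the count was 7, and the line differences gave 5 to 6 and 6 to 7. The replicate numbers name libraries and do not pair them, since correlations of deviations were small. With the replicate number as a block, 70 member values stayed on their side of the threshold, Oas1g between the lines lost it (4.29, adjusted p = 0.0512) and the Oasl1 line difference for Y640F against STAT3 gained it (-4.32, 0.0215). Depth limits Oas1g, Oasl1 in HPCLSK and Oas1a in HPC7 with STAT3, where 3 counts are 0.0778 to 0.315 CPM.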
